A study of Mus musculus with 6 samples.

Results

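The 10 genes described here mark the cells that line vessels. Pecam1, Cdh5, Kdr, Flt1, Tek, Emcn and Cldn5 represent blood endothelium, and Prox1, Lyve1 and Flt4 represent lymphatic endothelium. They are known vessel markers, but they were chosen after earlier results of these data had been seen. They were matched by symbol, and all 10 were found among the 54232 gene IDs of each count file. Polyadenylated RNA of mouse esophagus was sequenced, with 3 libraries after DTA-1 (an antibody that activates GITR, a receptor of T cells) and 3 after an isotype control antibody. Both groups had taken 100 µg/ml 4-NQO (4-nitroquinoline 1-oxide, a carcinogen that gives squamous tumors) in drinking water for 16 weeks from 8 weeks of age, and then plain water for 12 weeks. In both groups 10 µg of antibody was injected into the peritoneum 2 times a week during the last 2.5 weeks. The tissue had been enriched for invading cells, with no sort for endothelium, and it came from 4-NQO mice only, so no value for untreated esophagus is given. Nothing in the labels says that the libraries are separate mice, so p-values measure only how much these libraries vary, and part of that may be technical.

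Blood endothelial cells sense vascular endothelial growth factors (VEGFs) through the receptor tyrosine kinases VEGFR2, encoded by Kdr, and VEGFR1, encoded by Flt1, which binds VEGF-A tightly and acts largely as a decoy. Lymphatic endothelium responds to VEGF-C and VEGF-D through VEGFR3, encoded by Flt4, and keeps its identity through the transcription factor PROX1. TIE2, encoded by Tek, binds the angiopoietins and helps vessels stay quiescent, and junctions between endothelial cells hold PECAM1, VE-cadherin (Cdh5) and claudin-5 (Cldn5). In bulk tissue, fewer cells of a type and less RNA per cell cannot be told apart.

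Sequence upstream of the start site was read because ETS family factors such as ERG, which bind around the core GGAA, are well known regulators of endothelial genes. RefSeq promoter entries (GRCm38.p6) were matched for 7 of the 10 members: Kdr, Flt1, Tek, Emcn, Cldn5, Prox1 and Flt4. The sequences of 4 blood endothelial members are shown 5′ to 3′ on the gene's strand, up to the first annotated exon base. They are the genes for VEGFR2 and TIE2, whose levels ran together across libraries, for the other blood VEGF receptor, and for claudin-5, whose stretch lacks the core. Capitals mark GGAA or its reverse complement TTCC.

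Kdr, chr5:75978459-75978705, minus strand: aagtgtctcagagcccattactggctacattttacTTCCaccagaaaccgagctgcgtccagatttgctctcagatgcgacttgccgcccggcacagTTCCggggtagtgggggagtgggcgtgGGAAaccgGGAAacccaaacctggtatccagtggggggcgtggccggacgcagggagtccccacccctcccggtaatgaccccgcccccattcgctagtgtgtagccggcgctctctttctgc
Tek, chr4:94739039-94739288, plus strand: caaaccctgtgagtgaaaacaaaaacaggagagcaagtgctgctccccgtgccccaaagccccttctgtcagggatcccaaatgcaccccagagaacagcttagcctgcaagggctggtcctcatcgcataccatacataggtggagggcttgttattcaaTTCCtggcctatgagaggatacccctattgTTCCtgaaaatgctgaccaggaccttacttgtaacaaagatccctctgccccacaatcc
Flt1, chr5:147726012-147726261, minus strand: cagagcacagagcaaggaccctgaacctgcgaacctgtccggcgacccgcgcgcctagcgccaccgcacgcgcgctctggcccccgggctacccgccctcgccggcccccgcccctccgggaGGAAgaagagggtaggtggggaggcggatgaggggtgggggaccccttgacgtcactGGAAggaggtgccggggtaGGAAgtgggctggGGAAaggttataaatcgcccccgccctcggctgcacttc
Cldn5, chr16:18776597-18776846, plus strand: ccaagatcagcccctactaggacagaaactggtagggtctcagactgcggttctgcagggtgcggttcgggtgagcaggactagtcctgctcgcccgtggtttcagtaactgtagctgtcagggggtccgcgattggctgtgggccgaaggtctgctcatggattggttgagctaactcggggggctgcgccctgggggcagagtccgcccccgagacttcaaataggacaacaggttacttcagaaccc

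In the 250 bases before the start, counted on both strands, GGAA occurred 4 times in Kdr, 4 in Flt1, 4 in Emcn, 2 in Tek, 2 in Flt4 and 0 in Cldn5. Prox1 has 2 start sites among the promoter entries, with 5 and 2 matches. All motif, GC and CpG values here cover the full 250 bases, annotated exon bases included. The Flt4 window opened inside an annotated exon. An exon was met after 132 bases at the Prox1 start with 5 matches, after 239 in Emcn and after 247 in Kdr. The core is so short that 93.4% of all 32851 promoters of that length held it, with a median of 3 matches. The longer run GGAAG, which overlaps the core, occurred 3 times in Flt1, 1 time in Kdr, 0 times in Tek and 3 and 1 times at the Prox1 starts, and 64.1% of promoters held it. Base composition differed widely among the members. GC content was 70.4% in Flt1, 61.6% in Kdr, 59.6% in Cldn5, 51.2% in Tek and 40.8% in Emcn, beside a median of 52.4%. It was 68.4% in Flt4 and 56.0% and 64.8% at the Prox1 starts. CpG dinucleotides numbered 23 in Flt1, 16 in Kdr, 16 in Flt4, 11 and 20 at the Prox1 starts, 12 in Cldn5, 2 in Tek and 1 in Emcn, beside a median of 6.

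The libraries held 23147873 to 29065162 counts. Levels are counts scaled to library size (CPM, with library sizes adjusted by the trimmed mean of M values), and 3 values in a row belong to replicates 1, 2 and 3. Fold changes compare DTA-1 with isotype in log2 units, and p-values are from edgeR's quasi-likelihood test, adjusted by Benjamini-Hochberg over the 15763 genes tested. All 10 members passed the filter on low counts, with 81 reads (Prox1, isotype replicate 1) to 2521 reads (Pecam1, DTA-1 replicate 3) per library. Tissue makeup differed between libraries: the 12 squamous markers summed to 36585, 42699 and 43129 CPM with isotype and 32404, 8901 and 10404 CPM with DTA-1. The 16 striated muscle markers summed to 44872 to 91750 CPM with isotype and 96361 to 142508 CPM with DTA-1. Red cell transcripts summed to 2905 CPM in DTA-1 replicate 2 and to 85.3 to 172 CPM in the other 5 libraries.

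Each of the 10 vessel genes had a higher fitted level with DTA-1, and none passed the test. The log2 fold changes ran from 0.13 for Flt1 to 0.64 for Tek with a median of 0.33, beside -0.031 for all tested genes. With 1 library left out the median of the members ranged from 0.29 (DTA-1 replicate 2) to 0.50 (isotype replicate 3). A fold change above 0 was found for 10 of 10 members and for 47.1% of all tested genes. At an adjusted p under 0.05, edgeR called 0 of the 10 members and 0% of all genes. At an unadjusted p under 0.05 there was 1 member (Tek, higher), beside 12.7% of all genes, 5.21% higher and 7.52% lower. DESeq2 called 0 members, beside 1.12% of its genes, and had 2 members (Tek and Cldn5) at an unadjusted p under 0.05, beside 15% of the same genes. With library totals as the only scaling, the median of all genes was -0.19, 33.5% of them were above 0 and 0% were called. Of the members 9 then stayed above 0, with a median of 0.18 and Flt1 at -0.013.

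Leaving out DTA-1 replicate 1 changed the calls. edgeR then called Tek alone among the members, while it called 3.69% of all genes, 0.38% as higher, and placed 48.3% above 0. DESeq2 without that library called Pecam1, Kdr and Tek, all higher, while it called 16% of all genes, 5.48% as higher and 10.5% as lower, and placed 50.5% above 0. All 10 members were above 0 in both fits. DESeq2 with isotype replicate 3 left out called 0 members, beside 6.1% of all genes, 2.05% as lower. The refits with DESeq2 were chosen after seeing the data.

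**Figure D1:**
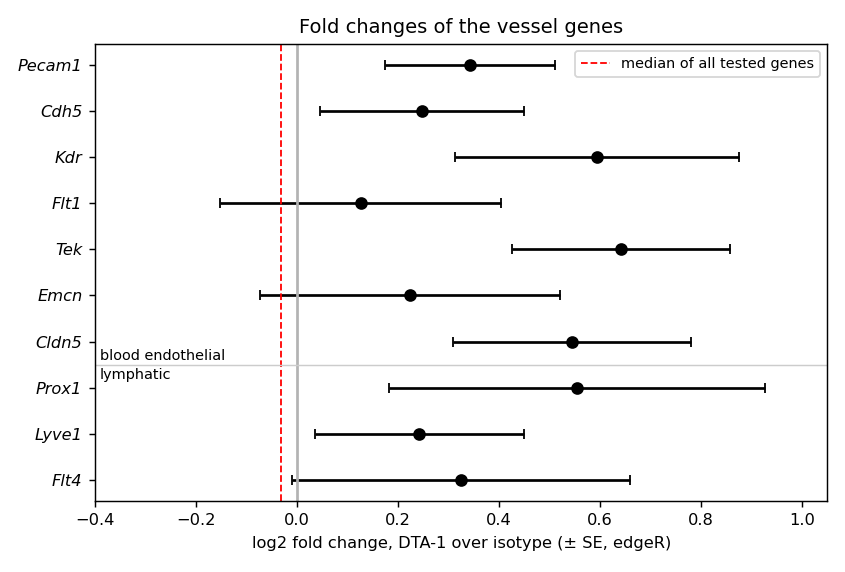
The log2 fold change of each vessel gene, DTA-1 over isotype, with its standard error from edgeR. All 10 points lie above 0 and above the median of all tested genes at -0.031 (dashed line), and the error bars of Flt1, Emcn and Flt4 cross 0.

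Tek (chromosome 4, 94739289 to 94874976, ENSMUSG00000006386) had the smallest p of the members. Its level was 17.8, 20.1 and 18.2 CPM with isotype and 21.1, 32.8 and 33.5 CPM with DTA-1. The groups did not overlap, but DTA-1 replicate 1 lay only just above the highest isotype library. Every DTA-1 library exceeded every isotype library in 3 members (Pecam1, Tek and Cldn5) and in 8.6% of all tested genes. The log2 fold change of Tek was 0.64 ± 0.22 (SE), with an unadjusted p of 0.0206 and an edgeR adjusted p of 0.39. Without DTA-1 replicate 1 it was 0.83, with an edgeR adjusted p of 0.0467. With DTA-1 replicate 2 left out instead, edgeR gave Tek 0.55 (adjusted p = 0.859), and with DTA-1 replicate 3 left out 0.53 (adjusted p = 0.642).

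Kdr (chromosome 5, 75932827 to 75978458, ENSMUSG00000062960), whose product is the main signaling receptor for VEGF-A, was measured at 15.1, 19.6 and 13.2 CPM with isotype and 15.9, 27.04 and 29.5 CPM with DTA-1. DTA-1 replicate 1 lay inside the isotype range, and replicates 2 and 3 lay above it. Its log2 fold change was 0.59 ± 0.28 (SE; edgeR adjusted p = 0.405). Without DTA-1 replicate 1 DESeq2 gave Kdr 0.86, with an adjusted p of 0.0137, and edgeR gave 0.82, with 0.0936. With DTA-1 replicate 3 left out instead, DESeq2 gave Kdr 0.45 (adjusted p = 0.714) and edgeR 0.43 (adjusted p = 0.663).

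Flt1 (chromosome 5, 147561604 to 147726011, ENSMUSG00000029648), the gene for VEGFR1, was measured at 29.01, 32.1 and 55.05 CPM with isotype and 34.5, 48.8 and 43.5 CPM with DTA-1. Isotype replicate 3 was the highest of all libraries for Flt1 and the lowest for Kdr. The log2 fold change of Flt1 was 0.13 ± 0.28 (SE; edgeR adjusted p = 0.845). It was -0.033 without isotype replicate 1 and 0.49 without isotype replicate 3. Gene counts do not separate the membrane-bound from the soluble form of VEGFR1.

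Per kilobase of exon, the ratio of Flt1 to Kdr was 1.28, 1.09 and 2.78 with isotype and 1.45, 1.21 and 0.985 with DTA-1. These ratios overlapped between the groups. The ratio of Tek to Tie1, which encodes the related receptor TIE1, was 0.771, 0.783 and 0.779 with isotype and 1.03, 1.06 and 0.968 with DTA-1. Library scaling cancels in this ratio and its groups did not overlap. The pair was chosen after the values were seen, so no test is given. Tie1 itself was at 24.03, 26.9 and 24.3 CPM with isotype and 21.3, 32.1 and 36.2 CPM with DTA-1, in overlapping ranges.

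Pecam1 (chromosome 11, 106654217 to 106750628, ENSMUSG00000020717), an adhesion molecule of endothelium that platelets and leukocytes also carry, was measured at 73.1, 69.6 and 74.1 CPM with isotype and 75.7, 91.4 and 108 CPM with DTA-1. The groups did not overlap, and DTA-1 replicate 1 was again next to isotype. Its log2 fold change was 0.34 ± 0.17 (SE; edgeR adjusted p = 0.41). Without DTA-1 replicate 1 DESeq2 gave Pecam1 0.50, with an adjusted p of 0.043, and edgeR gave 0.46, with 0.129. With DTA-1 replicate 3 left out instead, Pecam1 was at 0.23 in DESeq2 (adjusted p = 0.765) and 0.21 in edgeR (adjusted p = 0.684).

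Cldn5 (chromosome 16, 18776847 to 18778262, ENSMUSG00000041378), whose product seals endothelial tight junctions, was measured at 10.3, 14.1 and 13.9 CPM with isotype and 14.7, 22.6 and 18.6 CPM with DTA-1. These groups did not overlap, and the log2 fold change was 0.54 ± 0.24 (SE; edgeR adjusted p = 0.397). Cdh5 (chromosome 8, 104101625 to 104144511, ENSMUSG00000031871), the cadherin of endothelial adherens junctions, was measured at 37.1, 32.5 and 43.6 CPM with isotype and 35.5, 45.6 and 53.3 CPM with DTA-1. Its groups overlapped through DTA-1 replicate 1, with a log2 fold change of 0.25 ± 0.20 (SE; edgeR adjusted p = 0.576). With DTA-1 replicate 3 left out Cdh5 was at 0.10, and with DTA-1 replicate 1 left out at 0.39.

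Emcn (chromosome 3, 137341067 to 137432185, ENSMUSG00000054690), a sialomucin of capillary and venous endothelium, was measured at 17.4, 14.1 and 9.23 CPM with isotype and 11.96, 16.3 and 19.3 CPM with DTA-1. The ranges overlapped broadly, and the log2 fold change was 0.22 ± 0.30 (SE; edgeR adjusted p = 0.736). Leaving out isotype replicate 3, the library lowest in Emcn, gave 0.034, leaving out DTA-1 replicate 3 gave 0.057, and leaving out isotype replicate 1, the highest of its group, gave 0.46.

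**Figure D2:**
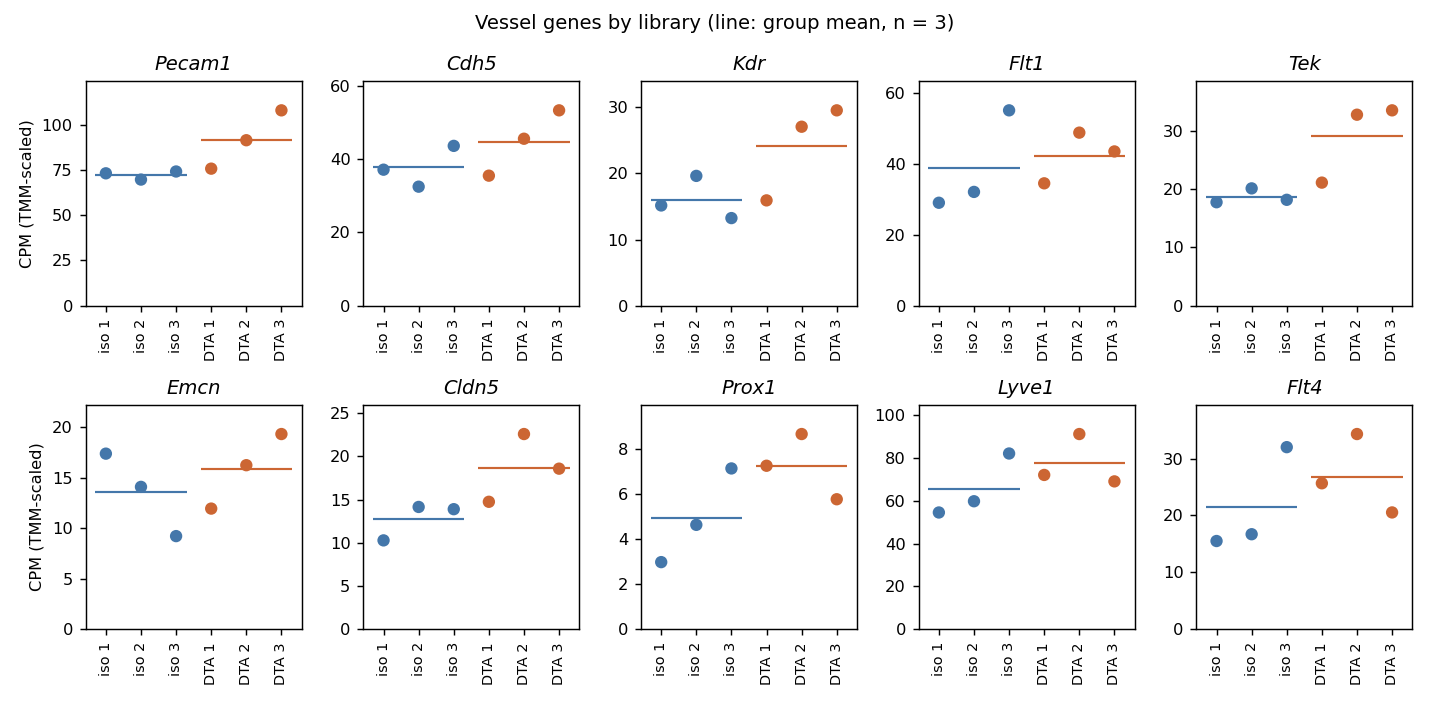
CPM of each vessel gene in isotype libraries 1 to 3 (iso, blue) and DTA-1 libraries 1 to 3 (DTA, orange), with a line at each group mean of n = 3 and the vertical axis starting at 0. DTA-1 replicate 1 is the lowest DTA-1 library for each of the 7 blood endothelial genes. Prox1, Lyve1 and Flt4 are highest among the isotype libraries in replicate 3, and so are Pecam1, Cdh5 and Flt1.

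The lymphatic genes followed another order of libraries. Prox1 (chromosome 1, 190118035 to 190170714, ENSMUSG00000010175), the lymphatic identity factor, was measured at 2.99, 4.64 and 7.14 CPM with isotype and 7.26, 8.67 and 5.78 CPM with DTA-1. Isotype replicate 3 lay above DTA-1 replicate 3, so the groups overlapped. The log2 fold change was 0.55 ± 0.37 (SE; edgeR adjusted p = 0.509), and it ranged from 0.31 without isotype replicate 1 to 0.95 without isotype replicate 3. An antisense gene, Prox1os, shares 133 exon bases with Prox1 and had 3 reads over all libraries, beside 888 for Prox1.

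Lyve1 (chromosome 7, 110850607 to 110863239, ENSMUSG00000030787), the gene of a hyaluronan receptor of lymphatic capillaries that some tissue macrophages also carry, was measured at 54.5, 59.7 and 81.96 CPM with isotype and 71.97, 91.02 and 68.97 CPM with DTA-1. Flt4 (chromosome 11, 49609263 to 49652739, ENSMUSG00000020357), the gene for VEGFR3, was measured at 15.5, 16.7 and 32 CPM with isotype and 25.7, 34.3 and 20.5 CPM with DTA-1. In both genes isotype replicate 3 and DTA-1 replicate 2 were the highest libraries and isotype replicates 1 and 2 the lowest. The log2 fold change was 0.24 ± 0.21 (SE; edgeR adjusted p = 0.589) for Lyve1 and 0.33 ± 0.33 (SE; edgeR adjusted p = 0.656) for Flt4. When isotype replicate 3 was left out they were 0.46 and 0.76, and when DTA-1 replicate 2 was left out they were 0.11 and 0.11.

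Markers of other cells that carry Lyve1 or Pecam1 were read in the same libraries. The 12 macrophage genes, none at 0 in all libraries, summed to 1126, 512 and 223 CPM with isotype and 253, 1410 and 633 CPM with DTA-1. Isotype replicate 3, the isotype library highest in Lyve1, had the lowest macrophage sum of all 6. DTA-1 replicate 2, the highest in Lyve1 of all 6, had the highest macrophage sum, but not the highest mean. The mean of log2 CPM over the 12 genes was 4.68, 4.18 and 2.92 with isotype and 3.22, 4.10 and 4.29 with DTA-1. By that mean isotype replicates 1 and 2 and DTA-1 replicate 3 stood above DTA-1 replicate 2. Of the 12 genes 9 had fold changes below 0, with a median of -0.34 that became 0.11 when isotype replicate 1 was left out. The part of macrophages in the Lyve1 values was not tested. The 5 pan-leukocyte genes summed to 168, 94.6 and 36.4 CPM with isotype and 43.1, 65.5 and 74.1 CPM with DTA-1, and all 5 had fold changes below 0, with a median of -0.69. That median was -0.065 when isotype replicate 1 was left out and -1.07 when isotype replicate 3 was. Of 7 platelet genes 4 passed the filter. The list summed to 163, 76.8 and 38.02 CPM with isotype and 29.2, 83.2 and 55.2 CPM with DTA-1, highest in isotype replicate 1. Gp6, a platelet receptor gene of that list picked after its values were seen, had 0 reads in 5 libraries and 11 reads in DTA-1 replicate 2. It does not stand for the list.

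Averaged over members, the blood and lymphatic genes ordered the libraries differently. The blood endothelial score, a mean of log2 CPM over 7 genes, was 4.55, 4.64 and 4.63 with isotype and 4.63, 5.14 and 5.199 with DTA-1. DTA-1 replicate 1 fell among the isotype libraries, and replicates 2 and 3 stood above all other libraries. The lymphatic score over 3 genes was 3.78, 4.07 and 4.74 with isotype and 4.58, 4.91 and 4.34 with DTA-1, in overlapping ranges. The lymphatic minus the blood endothelial score was highest in isotype replicate 3 (0.11) and lowest in DTA-1 replicate 3 (-0.86).

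**Figure D3:**
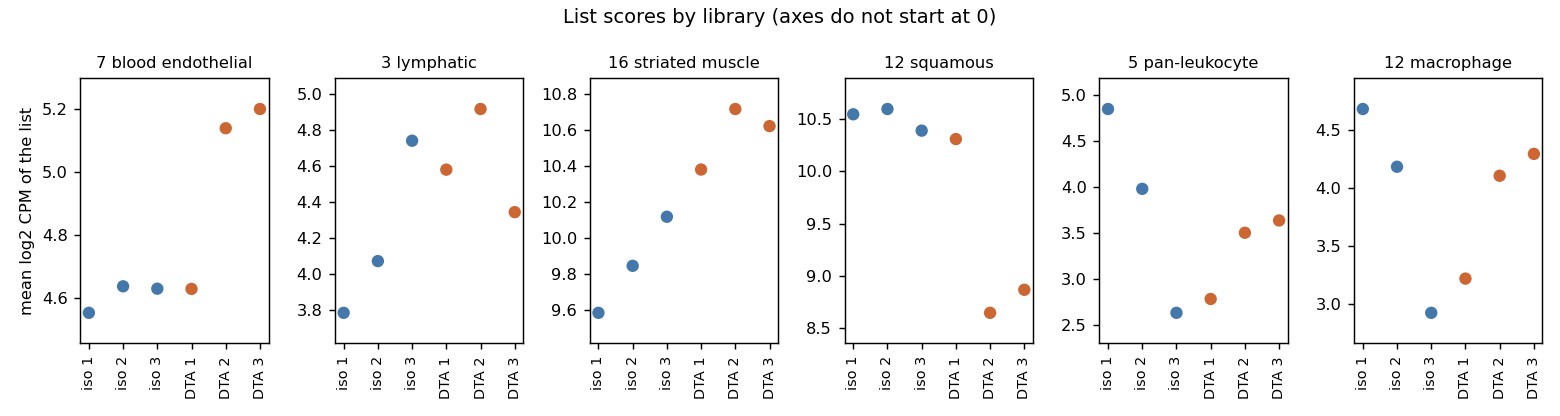
Mean log2 CPM of 6 gene lists in each library (iso, blue; DTA, orange); the vertical axes differ and do not start at 0. The blood endothelial score is high in DTA-1 replicates 2 and 3, the libraries with the lowest squamous scores, and the lymphatic score is high in isotype replicate 3 and DTA-1 replicates 1 and 2.

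Squamous marker RNA ran opposite to the blood endothelial score. The squamous score was 10.5, 10.6 and 10.4 with isotype and 10.3, 8.64 and 8.87 with DTA-1, lowest in the 2 libraries with high blood endothelial scores. Pearson's r between both scores was -0.98, a description of 6 libraries that share depth and scaling. The striated muscle score was 9.58, 9.84 and 10.1 with isotype and 10.4, 10.7 and 10.6 with DTA-1, with r of 0.83 to the blood endothelial and 0.79 to the lymphatic score. The Schwann cell score had r of 0.90 to the blood endothelial score. To the lymphatic score, the leukocyte score had r of -0.82 and the fibroblast score -0.70. The part of these other cells in the vessel values was not tested.

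Within the blood group, pairs of genes ranged from r of -0.36 (Flt1 with Emcn) to 0.95 (Kdr with Tek) over the 6 libraries. The 3 lymphatic pairs lay between 0.92 and 0.98. Flt1 was nearer to Lyve1 (0.88) and Flt4 (0.85) than to Kdr (0.20), whereas Emcn had negative coefficients with all 3 lymphatic genes, the lowest being -0.49 with Flt4. Each coefficient is a description of 6 libraries of 2 groups.

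The genes most like each score were ranked by r among 13245 genes over the same 6 libraries. Gmpr (0.997), Nbeal1 (0.994), Lonp2 (0.989), Cxxc5 (0.989), Zswim9 (0.989) and Oxsm (0.989) were nearest to the blood endothelial score. Gmpr, which encodes a purine nucleotide reductase, was at 45.3, 53.8 and 55.2 CPM with isotype and 56.8, 119.9 and 133 CPM with DTA-1, high in replicates 2 and 3 as the score is. The nearest gene of the vessel lists was Cd300lg, of capillary endothelium, with r of 0.97 and rank 46. Rprd1a (0.999), Lpin1 (0.999), Abca5 (0.998), Pcnt (0.996), Strip2 (0.996) and Kcnj12 (0.995) were nearest to the lymphatic score. Kcnj12, a potassium channel gene of muscle, was at 21.2, 27.1 and 64.2 CPM with isotype and 51.2, 79.6 and 36.1 CPM with DTA-1. Of the vessel lists, the lymphatic genes Reln (r of 0.97, rank 116) and Mmrn1 (r of 0.96, rank 145) came closest.

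Levels of the 10 genes are comparable only per length of exon. In isotype libraries Lyve1 was highest at 22.4 ± 4.999 CPM per kilobase (SD, n = 3), followed by Pecam1 at 11.6 ± 0.376, Cldn5 at 9.02 ± 1.52, Cdh5 at 8.98 ± 1.33 and Tek at 3.97 ± 0.2695 CPM per kilobase. Lower levels were found for Flt1 at 2.87 ± 1.054, Flt4 at 2.601 ± 1.12, Emcn at 2.51 ± 0.759, Kdr at 1.77 ± 0.362 and Prox1 at 0.587 ± 0.249 CPM per kilobase. The ranges of mean ± SD overlapped between Cldn5 and Cdh5 and between all neighbours from Tek down to Kdr. In DTA-1 libraries the order was the same except that Flt4 (3.26 ± 0.845 CPM per kilobase) stood before Flt1 (3.13 ± 0.535), within their SD.

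**Figure D4:**
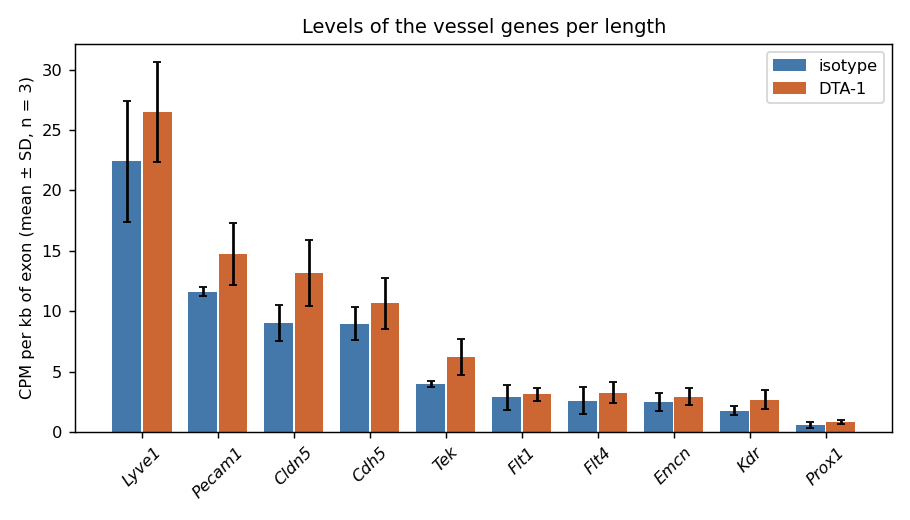
Mean CPM per kilobase of exon (bars, starting at 0) with SD over n = 3 libraries for each vessel gene in isotype (blue) and DTA-1 (orange) libraries. In the isotype group Lyve1 is highest at 22.4 and Prox1 lowest at 0.587 CPM per kilobase.

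Other vessel genes were read from 7 lists of 77 genes, of which 74 were tested. Of these 58 had fold changes above 0 and 16 below, beside 47.1% above 0 among all tested genes. Their median was 0.31 with all libraries, 0.11 when DTA-1 replicate 3 was left out and 0.48 when DTA-1 replicate 1 was, and edgeR called 0 at an adjusted p under 0.05. At an unadjusted p under 0.05 there were 5 higher and 5 lower of the 74, beside 5.21% and 7.52% of all genes. Every DTA-1 library was above every isotype library in 8 of the 74 and below in 5, beside 8.6% and 9.38% of all tested genes. Among 26 further pan-endothelial genes 23 were above 0, with a median of 0.34. With DTA-1 replicate 3 left out this median was 0.10, and with DTA-1 replicate 1 left out 0.53. Erg, the gene of an ETS factor of endothelial identity, was at 4.98, 5.43 and 5.56 CPM with isotype and 6.696, 8.76 and 7.74 CPM with DTA-1, without overlap (log2 fold change 0.54 ± 0.24, SE; edgeR adjusted p = 0.397). Podxl, a sialomucin gene, averaged 38.5 ± 6.12 CPM with isotype and 59.7 ± 18.3 with DTA-1 (SD, n = 3 each), with an edgeR adjusted p of 0.391. Sox7, which encodes a SOX factor, had the opposite sign, with averages of 31.1 ± 2.92 and 19.5 ± 5.88 CPM, no overlap and an edgeR adjusted p of 0.39. Its r to the blood endothelial score was -0.95, and the cells that gave its RNA were not tested. Vwf, the gene of von Willebrand factor, averaged 35.1 ± 9.27 CPM with isotype and 46.5 ± 10.1 with DTA-1.

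Of 7 VEGF ligands and co-receptors 5 were above 0, with a median of 0.35, which became 0.12 with isotype replicate 3 left out and 0.61 with DTA-1 replicate 1 left out. Vegfa, the ligand gene for Kdr and Flt1, was at 119, 62.9 and 31.3 CPM with isotype and 86.3, 56.7 and 72.7 CPM with DTA-1 (log2 fold change 0.018 ± 0.45, SE). Vegfc, the main lymphatic growth factor gene, averaged 3.06 ± 1.08 CPM with isotype and 3.91 ± 1.37 with DTA-1. Vegfd, whose product is the other ligand of VEGFR3, was at 22.96, 32.1 and 34.2 CPM with isotype and 36.4, 117 and 47.5 CPM with DTA-1. The groups did not overlap for Vegfd, DTA-1 replicate 2 being far above the rest, and the log2 fold change was 1.17 ± 0.44 (SE; edgeR adjusted p = 0.39). Vegfb averaged 52.8 ± 7.397 CPM with isotype and 76.9 ± 25.6 with DTA-1, and the co-receptor gene Nrp1 17.1 ± 5.61 and 21.9 ± 7.66 CPM. Of the TIE2 ligand genes, Angpt1, whose product activates TIE2, averaged 7.21 ± 0.834 CPM with isotype and 9.05 ± 3.51 with DTA-1. Angpt2, whose product opposes TIE2 in many settings, averaged 6.38 ± 2.62 CPM with isotype and 4.61 ± 0.733 with DTA-1.

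Of 9 endothelial Notch genes 5 were above 0 and 4 below, with a median of 0.10, which was -0.034 with library totals as the only scaling. The sign also turned with DTA-1 replicate 3 left out (-0.27), and the median was 0.30 with DTA-1 replicate 1 left out. Dll4, the ligand gene of tip cells, averaged 5.97 ± 1.54 CPM with isotype and 6.81 ± 1.74 with DTA-1. Jag1 was at 115, 67.9 and 59.7 CPM with isotype and 52.5, 29.9 and 32.1 CPM with DTA-1, Notch1 at 42.6, 62.9 and 59.7 and 41.2, 24.7 and 23.1 CPM. Dll1 was at 13.1, 16.6 and 18.1 CPM with isotype and 10.3, 11.4 and 8.43 CPM with DTA-1. Of the 9 genes 3 had every DTA-1 library below every isotype library and 1 had every one above, beside 9.38% and 8.6% of all tested genes. The 3 below were Jag1, Notch1 and Dll1, which were named because their p was the smallest of the list. The log2 fold changes were -1.08, -0.89 and -0.67, each with an edgeR adjusted p of 0.39. Squamous epithelium also expresses Jag1 and Notch1, its markers were lower in DTA-1 replicates 2 and 3, and its part in these values was not tested.

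Among 12 other lymphatic genes 10 were above 0, with a median of 0.46, a median that became 0.79 when isotype replicate 3 was left out and 0.12 when DTA-1 replicate 2 was. Foxc2, the gene of a factor of lymphatic valves, was at 0.479, 0.717 and 0.794 CPM with isotype and 1.35, 1.65 and 1.41 CPM with DTA-1, from 13 to 35 reads per library and without overlap. Its log2 fold change was 1.141 ± 0.36 (SE), with an unadjusted p of 0.0162 and an edgeR adjusted p of 0.39. Nfatc1 averaged 30.5 ± 4.22 CPM with isotype and 48.7 ± 15.3 with DTA-1, and Tbx1 144 ± 41.03 and 214 ± 55.3 CPM. Over the 6 libraries Nfatc1 and Tbx1 had r of 0.93 and 0.83 to the blood endothelial score. To the lymphatic score they had 0.65 and 0.62, and the cells that gave their RNA were not tested. Mmrn1, a matrix protein gene, was at 25.6, 37.2 and 89.5 CPM with isotype and 61.7, 96.4 and 36.8 CPM with DTA-1, highest in DTA-1 replicate 2 and isotype replicate 3 as Flt4 was. Pdpn, the gene of podoplanin, which fibroblasts and basal epithelium also carry, was at 40.8, 15.1 and 8.69 CPM with isotype and 10.7, 20.3 and 18.8 CPM with DTA-1. Isotype replicate 1, highest in Pdpn, was lowest in Prox1, Lyve1 and Flt4.

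**Figure D5:**
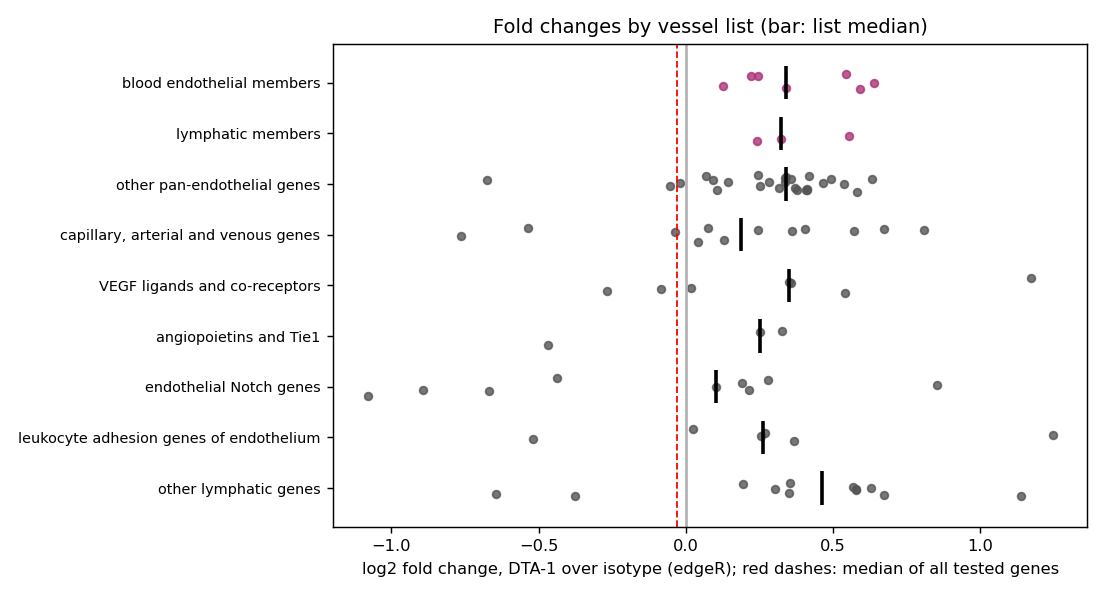
Log2 fold changes (DTA-1 over isotype, edgeR) of every tested gene of the vessel lists, with 1 point per gene, a bar at each list median and a dashed line at the median of all tested genes (-0.031). The median of the pan-endothelial list is 0.34, and the Notch list is spread to both sides with a median of 0.10.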

How the data were processed

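The values deposited by the authors are whole-number read counts per Ensembl gene, 1 file per library and not normalized. Tools named per the submitters' processing notes are HTSeq 0.6.1p1, cutadapt 1.13, DESeq2 1.14.1 and STAR, with build mm10; the strand setting is not given in the sources used here. Symbols, positions and exon lengths came from GENCODE M21 (GRCm38, the assembly named mm10), and 153 IDs had no symbol.

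Low counts were removed by filterByExpr (at least 10 counts, total of at least 15), libraries were scaled by TMM and genes were tested with edgeR 4.0.16 (robust quasi-likelihood, treatment as the sole term) in R 4.3.3, after the steps were tested on simulated data. Alternatives were 4 other scalings, 2 other filters, DESeq2 1.42.0, limma-voom (limma 3.58.1), the other edgeR dispersion method, a replicate block and each library left out. Refits of DESeq2 without each library were added after seeing the data. Scores are means of log2 CPM (prior count 2). At this depth 3 reads equal 0.108 to 0.141 CPM, which covers counting error only. Every pair of libraries differed by more than sampling noise. By the median chi-square per gene the closest pair was isotype replicate 3 with DTA-1 replicate 1 (4.72). DTA-1 replicate 1 was at 14.4 and 13.4 from isotype replicates 1 and 2, and at 13.6 and 18.2 from DTA-1 replicates 2 and 3.

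Members and the 20 lists (179 symbols, all matched) were chosen with earlier results of these data known. Named are all members, 8 set genes (Tie1, Vwf, Vegfa, Vegfc, Angpt2, Dll4, Pdpn, Rgs5), up to 3 genes of smallest p per vessel list, and the 6 genes most correlated with each score among those with a mean log2 CPM of at least 0 and no predicted symbol. Any other gene was named after its values were seen.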

Additional observations from a re-analysis of the deposited data

How the results depend on the processing

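With all 6 libraries, edgeR and limma-voom called 0 genes under each alternative, and DESeq2 called 180 genes and 0 members. Leaving out 1 library gave 0 to 601 genes and 0 to 1 member (Tek) in edgeR, the highest without DTA-1 replicate 1, where 1 Notch gene (Notch1, lower) was called too. In DESeq2 it gave 180, 56 and 896 genes without isotype replicates 1, 2 and 3 and 2449, 41 and 41 without DTA-1 replicates 1, 2 and 3. Without DTA-1 replicate 1 DESeq2 called 16% of all genes (5.48% higher, 10.5% lower) and 3 of 10 members, all higher. Of the lists it called 3 of 26 other pan-endothelial genes (Cd34 and Podxl higher, Sox7 lower), 2 of 12 capillary, arterial and venous genes (Cd300lg higher, Efnb2 lower) and 2 of 7 VEGF ligands or co-receptors (Vegfb and Vegfd, higher). It also called 2 of 9 Notch genes (Jag1 and Notch1, lower) and 1 of 12 other lymphatic genes (Nfatc1, higher). Without isotype replicate 3 it called 6.1% of all genes (2.05% lower), 1 of 12 capillary, arterial and venous genes (Efnb2, lower) and 1 of 9 Notch genes (Jag1, lower). In the DESeq2 fit without DTA-1 replicate 1 the log2 fold changes were 0.50 for Pecam1, 0.86 for Kdr and 0.86 for Tek. With 1 library left out, edgeR gave Tek 0.53 to 0.83 and Flt1 -0.033 to 0.49. Flt1 was also below 0 with library totals alone (-0.013) and in DESeq2 without isotype replicate 1 (-0.026); the cause was not tested. The other 9 members stayed above 0 under all 22 alternatives. Deviations of same-numbered libraries from their group means correlated at 0.02, -0.33 and -0.09, and not every library correlated best with its own number. Deviations within a group of 3 add to 0, so these values cannot settle whether replicate numbers pair the samples. With the replicate block, edgeR called 0 genes, and Tek was at 0.61 with an adjusted p of 0.475.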

Other observations

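Genes of vessel subtypes and of neighbouring cells gave further values. Of 12 capillary, arterial and venous genes 9 were above 0, with a median of 0.19. This median was 0.43 with DTA-1 replicate 1 left out and 0.037 with library totals as the only scaling. Efnb2, the gene of an arterial ligand, was at 39.1, 30.4 and 29.6 CPM with isotype and 20.96, 19.1 and 18.4 CPM with DTA-1, without overlap. Its log2 fold change was -0.76 ± 0.17 (SE), with an edgeR adjusted p of 0.39. Ephb4, the gene of its venous receptor, averaged 50.02 ± 16.3 CPM with isotype and 34.5 ± 5.09 with DTA-1 (SD, n = 3 each). To the blood endothelial score Efnb2 had r of -0.80 and Ephb4 -0.57 over the 6 libraries. The cells that gave their RNA were not tested. Rgcc, of capillaries, averaged 16.7 ± 4.29 CPM with isotype and 24.9 ± 1.56 with DTA-1, with no overlap and an edgeR adjusted p of 0.39.

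Of 8 leukocyte adhesion genes of endothelium 6 were tested and 5 were above 0, with a median of 0.26, or 0.10 with isotype replicate 3 left out and 0.47 with isotype replicate 1 left out. Icam1 averaged 22.2 ± 4.51 CPM with isotype and 15.5 ± 3.65 with DTA-1, Ackr1, of venules, 5.85 ± 1.76 and 7.55 ± 1.32 CPM, and Chst4 0.384 ± 0.256 and 0.919 ± 0.551 CPM. Madcam1 and Glycam1 were below the filter, and so was Angpt4 among the angiopoietins. Of 8 mural cell genes 4 were above 0, with a median of 0.046 that became -0.41 with DTA-1 replicate 3 left out and 0.27 with isotype replicate 2 left out, and the pericyte gene Rgs5 was at 111, 371 and 249 CPM with isotype and 145, 147 and 419 CPM with DTA-1. Summed smooth muscle markers ranged over 1093 to 7452 CPM with isotype and 1612 to 8189 CPM with DTA-1, and adipocyte markers over 44.2 to 296 and 156 to 799 CPM. Fibroblast markers summed to 759.8 to 1983 and 597 to 1418 CPM, and Schwann cell markers to 103 to 141 and 90.4 to 186 CPM.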
